A study of Mus musculus with 6 samples.

Results

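The ribosome biogenesis genes described here are 40 genes of the nucleolus, of RNA polymerase I and of pre-rRNA processing, taken by symbol from a list given by name. All 40 were among the 24421 genes of the deposited count table, and all 40 were among the 13411 genes with enough counts to be tested. RNA was sequenced from Lin-CD117+ cells, the bone marrow fraction without lineage antigens but with KIT (CD117) on its surface, in which blood stem cells and progenitors are found. The 6 libraries came from female CByB6F1 mice of 2 to 5 months. In 3 of them (RUX pools 4 to 6) the mice had been given ruxolitinib, a drug that blocks the kinases JAK1 and JAK2. The other 3 (untreated pools 1 to 3) were from mice with no treatment. Each library pooled the sorted cells of 2 to 3 mice of 1 group, so the spread between libraries is a spread between pools and not between single mice. Neither its dose nor the length of treatment is stated in the labels.

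Counted read pairs totalled 46027491 to 48747137 in the RUX pools and 27354768 to 38691826 in the untreated pools. Every one of the 40 genes had at least 1291 read pairs in every pool. Kit stood at 191 to 476 CPM (counts scaled to library size, here to the whole library) over the 6 pools, and the lineage antigen genes Cd3e and Cd8a stayed at or under 0.543 CPM. By eosinophil markers, RUX pool 4 and untreated pool 3 lay apart from the other 4 pools. These markers summed to 227 CPM in RUX pool 4 and 243 CPM in untreated pool 3, against 51.0 to 106 CPM elsewhere. Neutrophil genes set the pools apart differently. Their mean log2 deviation from the 6-pool means was -1.64 in untreated pool 1, the outermost. It was highest in untreated pool 3, at 1.24, and 0.61 in untreated pool 2, near the 0.63 of RUX pool 4. Without RUX pool 4 and untreated pool 3 the members' median log2 fold change was 0.0209 and 0 of 40 passed the test. That fit had fewer pools in each group with which to detect a difference.

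Ribosome production starts in the nucleolus, where RNA polymerase I copies ribosomal DNA into a long precursor. Small nucleolar RNPs modify that precursor, the small subunit processome folds and cuts it, and separate assembly factors carry the 40S and 60S particles toward the cytoplasm. In hematopoietic cells the pathway is known for its link to growth and to inherited marrow failure, as in Shwachman-Diamond syndrome, which is caused by mutations in the human SBDS gene. Hematopoietic stem cells are known for low protein synthesis, and progenitors for higher protein synthesis.

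Levels of the 40 genes spanned a wide range when counts were divided by exon length (TPM, which also scales for library size). Npm1, the nucleolar chaperone nucleophosmin, was the most abundant, at 1855 ± 177 TPM in RUX pools and 1815 ± 62.2 TPM in untreated pools (mean ± SD, n = 3 each, as in all such pairs). Fbl, the methyltransferase fibrillarin, followed with 554 ± 45.4 TPM in RUX and 502 ± 11.1 TPM in untreated pools. Ncl, the histone chaperone and RNA-binding protein nucleolin, measured 486 ± 67.7 TPM in RUX and 460 ± 46.1 TPM in untreated pools. Nop58 and Nop56, scaffold proteins of box C/D particles, came next, with means of 386 and 299 TPM over the 6 pools. At the low end stood Noc3l, Polr1a and Utp20, with means of 19.4, 17.9 and 11.2 TPM. The highest mean was thus 164 times the lowest. TPM divides by the summed length of all annotated exons of a gene, which for Ncl was 8257 bases, so the value of a gene with many annotated exon forms is set low.

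**Figure D1:**
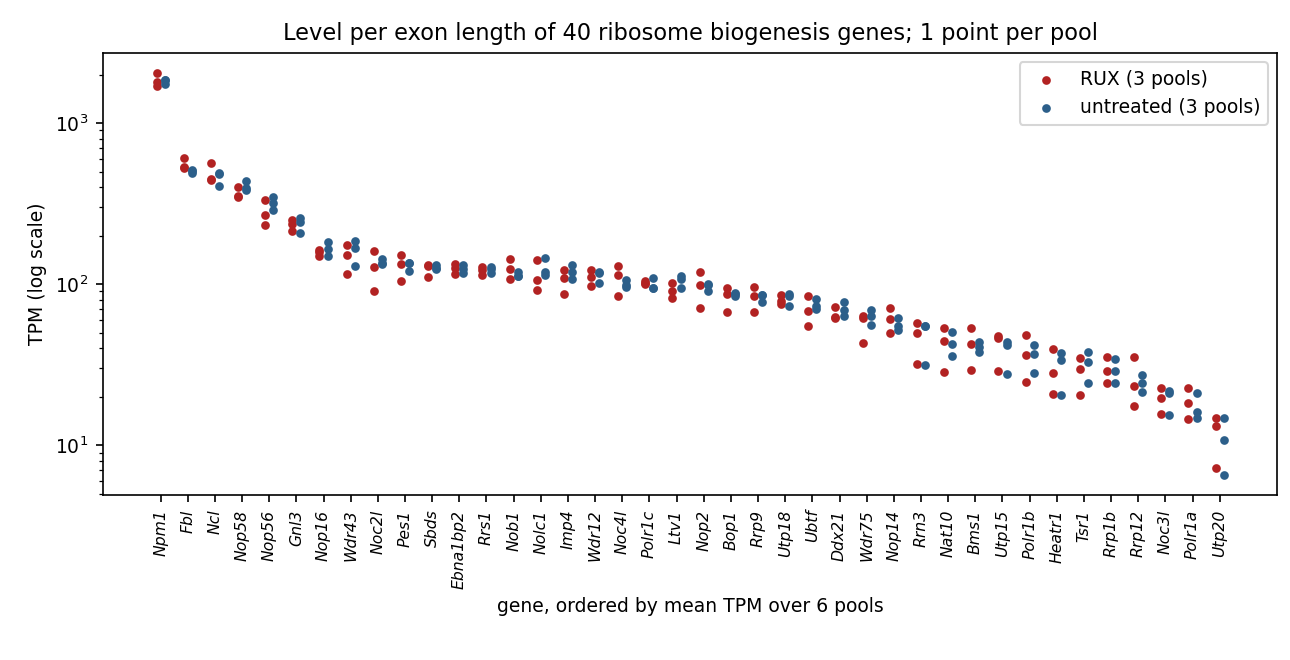
Level of each of the 40 genes in TPM on a log scale, 1 point per pool, with RUX pools left of untreated pools and genes ordered by mean TPM over the 6 pools. Npm1 stands alone at the top with a mean of 1835 TPM and Utp20 at the bottom with 11.2 TPM, and within nearly every gene the RUX and untreated points interleave.

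None of the 40 genes differed between RUX and untreated pools beyond the test's threshold. The fold changes were small, with log2 values from -0.20 (Ltv1) to 0.14 (Fbl). Of the 40, 16 lay on the positive side and 24 on the negative side, and the median log2 fold change was -0.01, against -0.0036 over all 13411 tested genes. By edgeR's quasi-likelihood test with Benjamini-Hochberg adjustment over all tested genes, 0 of 40 had an adjusted p under 0.05, as was the case for 0% of all tested genes, and every member's adjusted p was 0.9999. At an unadjusted p under 0.05 the count was also 0 of 40, against 1.89% of all tested genes. DESeq2 and limma-voom also called 0 of 40, adjusted or unadjusted. Fold changes had 95% intervals that stayed inside 1.5-fold, up or down, for 39 of 40 members, against 56.8% of all tested genes. Inside 2-fold were 40 of 40, against 80.9%. The exception at 1.5-fold was Utp20, whose interval ran from 0.769 to 1.56. The members were all well counted, averaging at least 42.9 CPM over the 6 pools, whereas the tested genes at large include rarer ones.

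**Figure D2:**
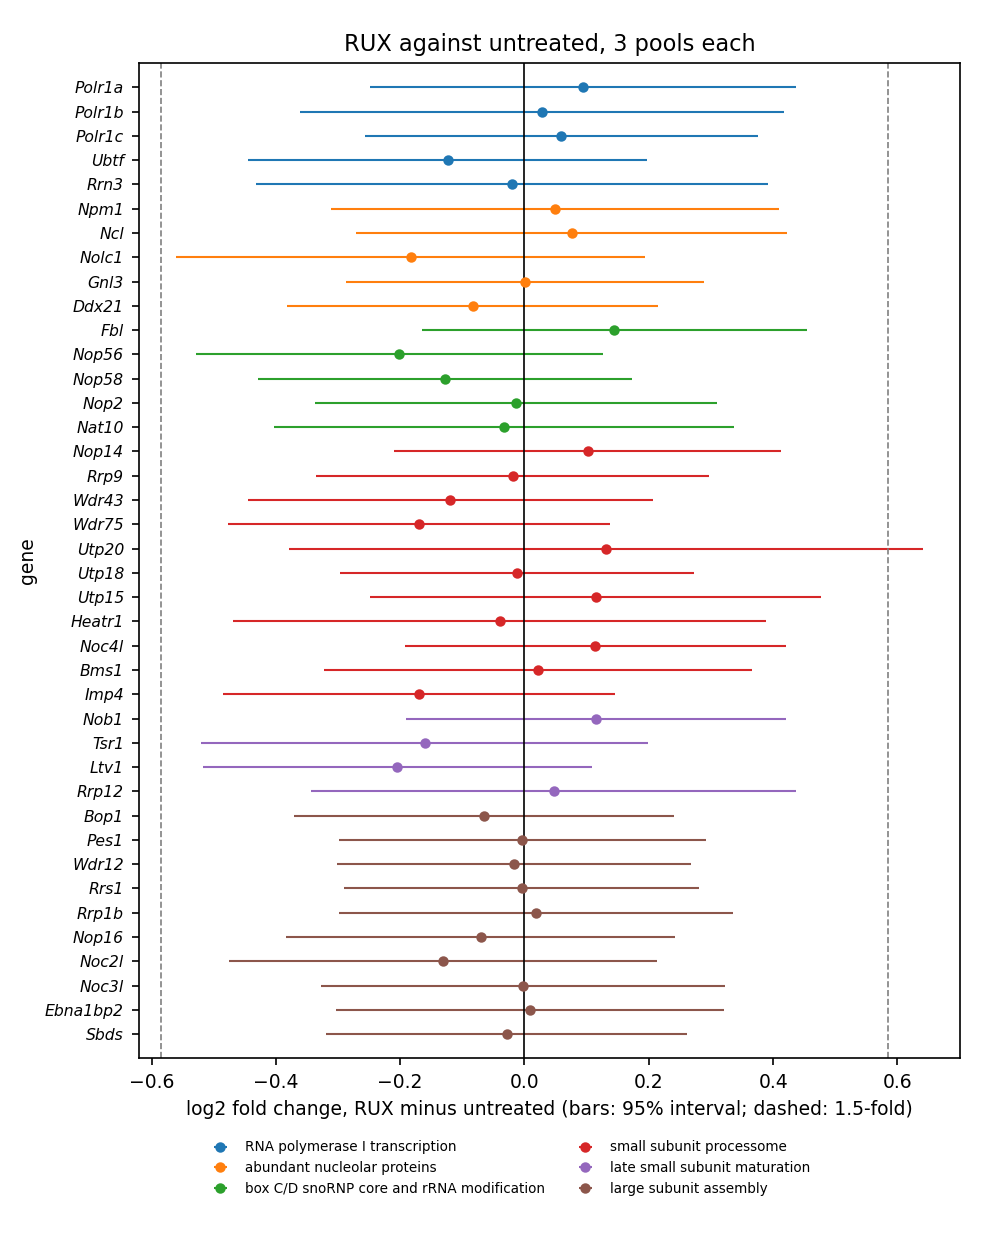
Log2 fold change of each gene, RUX minus untreated (points), with its 95% interval (bars), coloured by role; dashed lines mark 1.5-fold. Every interval crosses 0, and Utp20 is the only gene whose bar passes a dashed line.

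None of the RNA polymerase I genes passed the test, and the pools of the groups overlapped for each of them. Polr1a, the largest subunit of the enzyme (chromosome 6, 71909053 to 71979360 in mm10), measured 56.4, 60.2 and 72.5 CPM in RUX pools 4, 5 and 6, against 52.6, 68.9 and 55.6 CPM in untreated pools 1, 2 and 3. The groups overlapped, and the fold was 1.07 with a 95% interval of 0.842 to 1.35. Polr1b, the second-largest subunit, measured 62.4, 78.1 and 101 CPM in RUX pools 4 to 6, against 79.0, 89.3 and 68.7 CPM in untreated pools 1 to 3. Both extremes of Polr1b were RUX pools, and its fold was 1.02 (0.779 to 1.34). Rrn3, the initiation factor that recruits the polymerase to the ribosomal DNA promoter, measured 72.3, 96.9 and 108 CPM in RUX pools, against 106, 105 and 70.0 CPM in untreated pools. RUX pool 4 and untreated pool 3 were the low pools of Rrn3, 1 in each group, while the other 4 lay between 96.9 and 108 CPM. Without both pools the log2 fold change of Rrn3 was -0.04. Ubtf, the upstream binding factor that keeps ribosomal genes open, had the smallest p of the 5, with 184 ± 24.0 CPM in RUX and 201 ± 18.4 CPM in untreated pools and a log2 fold change of -0.12 ± 0.15 (SE). Polr1c, a subunit shared with RNA polymerase III, had a log2 fold change of 0.06.

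Rrn3 was 1 of 4 members whose promoter held the hexamer CACGTG before the transcription start. This is the E box, a sequence known to be bound by MYC with its partner MAX, and it is shown because ribosome biogenesis genes are textbook MYC targets. RefSeq promoters of the GRCm38.p6 build, from 250 bases before to 50 bases after the start, were found by symbol for 34 of the 40 members. The hexamer reads the same on both strands and was the only motif searched. It occurred in 9 of 34 members (26.5%), against 8.09% of the 27025 genes with a promoter in that table. A match describes letters and does not show binding. In Rrn3 the copies began 215 and 48 bases before the start, in Imp4 121, in Nop2 60 and in Utp18 20. In Ltv1, Utp20, Pes1, Tsr1 and Wdr43 the copy lay after the start. The 250 bases before the start of those 4 genes follow, 5′ to 3′ on the gene's own strand, with CACGTG in capitals. They lie at chr16:13780449-13780698 (+) for Rrn3, chr6:125131633-125131882 (+) for Nop2, chr11:93885767-93886016 (-) for Utp18 and chr1:34439579-34439828 (+) for Imp4.
Rrn3: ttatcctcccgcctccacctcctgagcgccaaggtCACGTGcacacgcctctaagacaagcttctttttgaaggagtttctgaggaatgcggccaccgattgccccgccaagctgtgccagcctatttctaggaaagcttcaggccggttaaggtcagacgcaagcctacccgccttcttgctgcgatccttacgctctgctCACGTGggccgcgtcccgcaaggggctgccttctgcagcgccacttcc
Nop2: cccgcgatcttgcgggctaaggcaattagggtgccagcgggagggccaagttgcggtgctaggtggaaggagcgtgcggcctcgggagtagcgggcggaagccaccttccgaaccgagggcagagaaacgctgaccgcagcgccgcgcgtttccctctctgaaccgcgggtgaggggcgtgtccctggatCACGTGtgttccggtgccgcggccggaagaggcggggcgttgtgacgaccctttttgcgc
Utp18: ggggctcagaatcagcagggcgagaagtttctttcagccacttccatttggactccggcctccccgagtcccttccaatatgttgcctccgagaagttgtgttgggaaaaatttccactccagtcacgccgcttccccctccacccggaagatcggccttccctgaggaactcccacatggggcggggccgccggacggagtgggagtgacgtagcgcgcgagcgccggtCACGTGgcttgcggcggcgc
Imp4: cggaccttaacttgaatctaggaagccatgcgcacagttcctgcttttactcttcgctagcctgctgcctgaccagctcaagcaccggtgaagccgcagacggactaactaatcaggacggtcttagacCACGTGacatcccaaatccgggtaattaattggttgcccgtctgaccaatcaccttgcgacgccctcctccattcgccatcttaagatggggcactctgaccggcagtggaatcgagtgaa
Across these 4 genes the log2 fold changes were -0.02, -0.01, -0.01 and -0.17, and those of the 5 genes with the hexamer after the start ran from -0.20 (Ltv1) to 0.13 (Utp20).

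The genes grouped as abundant nucleolar proteins had log2 fold changes from -0.18 (Nolc1) to 0.08 (Ncl), and none passed the test. The group name does not rank level, as Nolc1 (119.5 TPM) and Ddx21 (67.7 TPM) lay below Nop56 (299 TPM). Npm1 measured 2226, 1580 and 1627 CPM in RUX pools 4, 5 and 6, against 1607, 1696 and 1948 CPM in untreated pools 1, 2 and 3. RUX pool 4 was the highest and RUX pool 5 the lowest of all 6, so the range of the RUX pools enclosed that of the untreated pools. The Npm1 fold was 1.03 (0.805 to 1.33). Ncl measured 2338, 1981 and 2435 CPM in RUX pools, against 1802, 2135 and 2471 CPM in untreated pools, a fold of 1.05 (0.829 to 1.34). For Ncl both extremes were untreated pools. Nolc1, a phosphoprotein that chaperones small nucleolar RNPs, measured 212, 210.1 and 269 CPM in RUX pools, against 234, 223 and 327 CPM in untreated pools. It had the smallest p of this role group, with a log2 fold change of -0.18 ± 0.18 (SE), and untreated pool 3 was above the other 5 pools. Gnl3, or nucleostemin, a GTPase known from stem and cancer cells, was nearly constant, at 255 ± 7.73 CPM in RUX and 255 ± 10.7 CPM in untreated pools. Ddx21, a helicase of pre-rRNA processing, measured 175 ± 15.2 CPM in RUX and 185 ± 10.1 CPM in untreated pools.

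Of the 5 genes for the box C/D core and for rRNA modification, 1 lay on the positive side and 4 on the negative side. Fbl (chromosome 7, 28169748 to 28179269), the enzyme that methylates rRNA within box C/D particles, measured 383, 333 and 368 CPM in RUX pools 4, 5 and 6, against 305, 310.2 and 365 CPM in untreated pools 1, 2 and 3. In CPM untreated pool 3 reached into the RUX range. In TPM the groups of Fbl did not overlap, with 523, 533 and 606 TPM in RUX pools, against 491, 503 and 513 TPM in untreated pools. It was the 1 member separated on that scale, in a direction shown by 2.34% of all tested genes, so which member was separated depended on the scaling. The Fbl log2 fold change of 0.14 ± 0.14 (SE) was the highest of the 40, and its fold interval was 0.892 to 1.37. Nop56 measured 278, 275 and 331 CPM in RUX pools, against 356, 291 and 370 CPM in untreated pools. RUX pool 6 lay above untreated pool 2, so the groups overlapped, and the log2 fold change was -0.20 ± 0.15 (SE). Nop58, the partner of Nop56 in the same particle, had a log2 fold change of -0.13. The fold intervals of the 3 core proteins overlap (0.693 to 1.09 for Nop56, 0.743 to 1.13 for Nop58), and whether Fbl differed from its partners was not tested. Nop2, an rRNA cytosine methyltransferase, and Nat10, an rRNA acetyltransferase, had log2 fold changes of -0.01 and -0.03.

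The small subunit processome is the complex that assembles on the 5′ part of the precursor, and its 11 genes split into 5 positive and 6 negative fold changes. Wdr75, a propeller protein of the complex (chromosome 1, 45795501 to 45823613), was the 1 member of all 40 whose groups did not overlap in TMM-scaled CPM, against 6.24% of all tested genes. It measured 70.7, 86.6 and 87.1 CPM in RUX pools 4, 5 and 6, against 97.1, 88.4 and 89.3 CPM in untreated pools 1, 2 and 3. The gap was narrow, from 87.1 to 88.4 CPM, and in TPM the groups of Wdr75 overlapped, with 42.8, 61.5 and 63.7 TPM in RUX pools, against 69.3, 63.7 and 55.7 TPM in untreated pools. The log2 fold change of -0.17 ± 0.14 (SE) did not pass (unadjusted p = 0.255, edgeR). Imp4, a protein bound to the U3 small nucleolar RNA, measured 124, 133 and 145 CPM in RUX pools, against 159, 129 and 164 CPM in untreated pools, a log2 fold change of -0.17 ± 0.15 (SE). Here untreated pool 2 lay within the RUX range. Utp20, a very large scaffold protein, had the widest range of the 40, with its highest pool 1.96 times its lowest. It measured 40.3, 62.2 and 68.2 CPM in RUX pools, against 50.9, 69.4 and 35.5 CPM in untreated pools. The low pools of Utp20 were RUX pool 4 and untreated pool 3, the same as for Rrn3, and without both its log2 fold change was 0.12, against 0.13 with all pools. Over all settings tried it ran from -0.08 to 0.41. Heatr1, another large scaffold, was also lowest in these pools, at 89.2 CPM in RUX pool 4 and 84.9 CPM in untreated pool 3, and without both its log2 fold change was -0.08, against -0.04 with all pools. The others (Nop14, Rrp9, Wdr43, Utp18, Utp15, Noc4l and Bms1) had log2 fold changes from -0.12 to 0.11.

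Late maturation of the small subunit was represented by Nob1, Tsr1, Ltv1 and Rrp12, and 2 of the 4 lay on each side. Ltv1, an assembly factor of the 40S particle, had the smallest p of the 40 (0.183 unadjusted, edgeR). It measured 91.5, 86.4 and 93.6 CPM in RUX pools 4, 5 and 6, against 107, 88.8 and 117 CPM in untreated pools 1, 2 and 3. The RUX pools lay close together, and untreated pool 2 lay among them. The log2 fold change was -0.20 ± 0.15 (SE), with a fold interval of 0.699 to 1.08. Nob1, the nuclease that makes the last cut of 18S rRNA, measured 111, 110.2 and 124 CPM in RUX pools, against 99.9, 98.6 and 120.3 CPM in untreated pools, a fold of 1.08 (0.876 to 1.34). Tsr1, a GTPase-like assembly factor, measured 53.2 ± 8.83 CPM in RUX and 59.5 ± 8.68 CPM in untreated pools. For Tsr1, 34.2% of the exon bases are shared with Srr on the opposite strand, and read pairs there were left out of the counts by the tool's defaults. Rrp12 measured 60.4 ± 16.5 CPM in RUX and 58.5 ± 3.61 CPM in untreated pools, and RUX pool 6 alone, at 79.2 CPM, made the RUX spread wide.

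The large subunit genes had log2 fold changes from -0.13 (Noc2l) to 0.02 (Rrp1b), and none passed the test. Pes1, Bop1 and Wdr12 form the PeBoW complex, which is needed to process the precursor of 28S and 5.8S rRNA. Pes1 (chromosome 11, 3963975 to 3980004) measured 193, 210.4 and 229 CPM in RUX pools 4, 5 and 6, against 211, 209 and 214 CPM in untreated pools 1, 2 and 3. The means of Pes1 were 211 CPM in both groups, and the RUX pools spread more widely. Wdr12 had the narrowest range of the 40, with 209, 203 and 217 CPM in RUX pools and 215, 209 and 212 CPM in untreated pools, a fold of 0.989 (0.812 to 1.20). Bop1 measured 115 ± 8.96 CPM in RUX and 120.1 ± 12.5 CPM in untreated pools. Per exon length the 3 partners stood at like levels, with 6-pool means of 130 TPM for Pes1, 112 TPM for Wdr12 and 84.7 TPM for Bop1. Sbds, which helps release the anti-association factor eIF6 from the 60S particle (chromosome 5, 130245732 to 130255462), measured 103.9, 103 and 102 CPM in RUX pools, against 104, 96.9 and 114 CPM in untreated pools. The RUX pools of Sbds lay within 2 CPM of each other and inside the untreated range.

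Noc2l, a protein of early 60S particles, had the smallest p of the 10 large subunit genes, with 196 ± 37.1 CPM in RUX and 214 ± 15.7 CPM in untreated pools (log2 fold change -0.13 ± 0.16, SE). Of its exon bases, 21.5% are shared with Samd11 on the opposite strand. Nop16 measured 153 ± 9.40 CPM in RUX and 161 ± 20.6 CPM in untreated pools, a log2 fold change of -0.07. Noc3l, the partner of Noc2l and the least abundant large subunit gene per length, averaged 42.8 CPM in RUX and 42.9 CPM in untreated pools. Rrs1, Rrp1b and Ebna1bp2 had log2 fold changes of -0.0044, 0.02 and 0.01. Ebna1bp2 shares 20.4% of its exon bases with another gene on the same strand.

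Pools differed from each other within the groups. The mean deviation of the 40 genes from their own 6-pool means, on the log2(CPM + 1) scale, was -0.11, -0.04 and 0.12 in RUX pools 4, 5 and 6, against -0.01, 0.03 and 0.02 in untreated pools 1, 2 and 3. The lowest and the highest pool were thus both RUX pools. RUX pool 6 held the highest value for 16 of 40 genes (40%) and the lowest for 0, against 16.8% and 17.5% of all tested genes. RUX pool 4 held the lowest value for 13 (32.5%), against 19.6% of all tested genes. Untreated pool 3 held the highest value for 12 (30%), against 19.6%. The role groups did not share 1 order: the RNA polymerase I genes had a mean deviation of -0.15 in RUX pool 4 and -0.0991 in untreated pool 3, whereas the abundant nucleolar genes had 0.07 in RUX pool 4 and 0.15 in untreated pool 3. Within a group the median coefficient of variation of the 40 was 10.7% in RUX and 10.6% in untreated pools. Over the 5010 tested genes within the same range of mean CPM it was 10.3% in RUX and 12.7% in untreated pools.

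**Figure D3:**
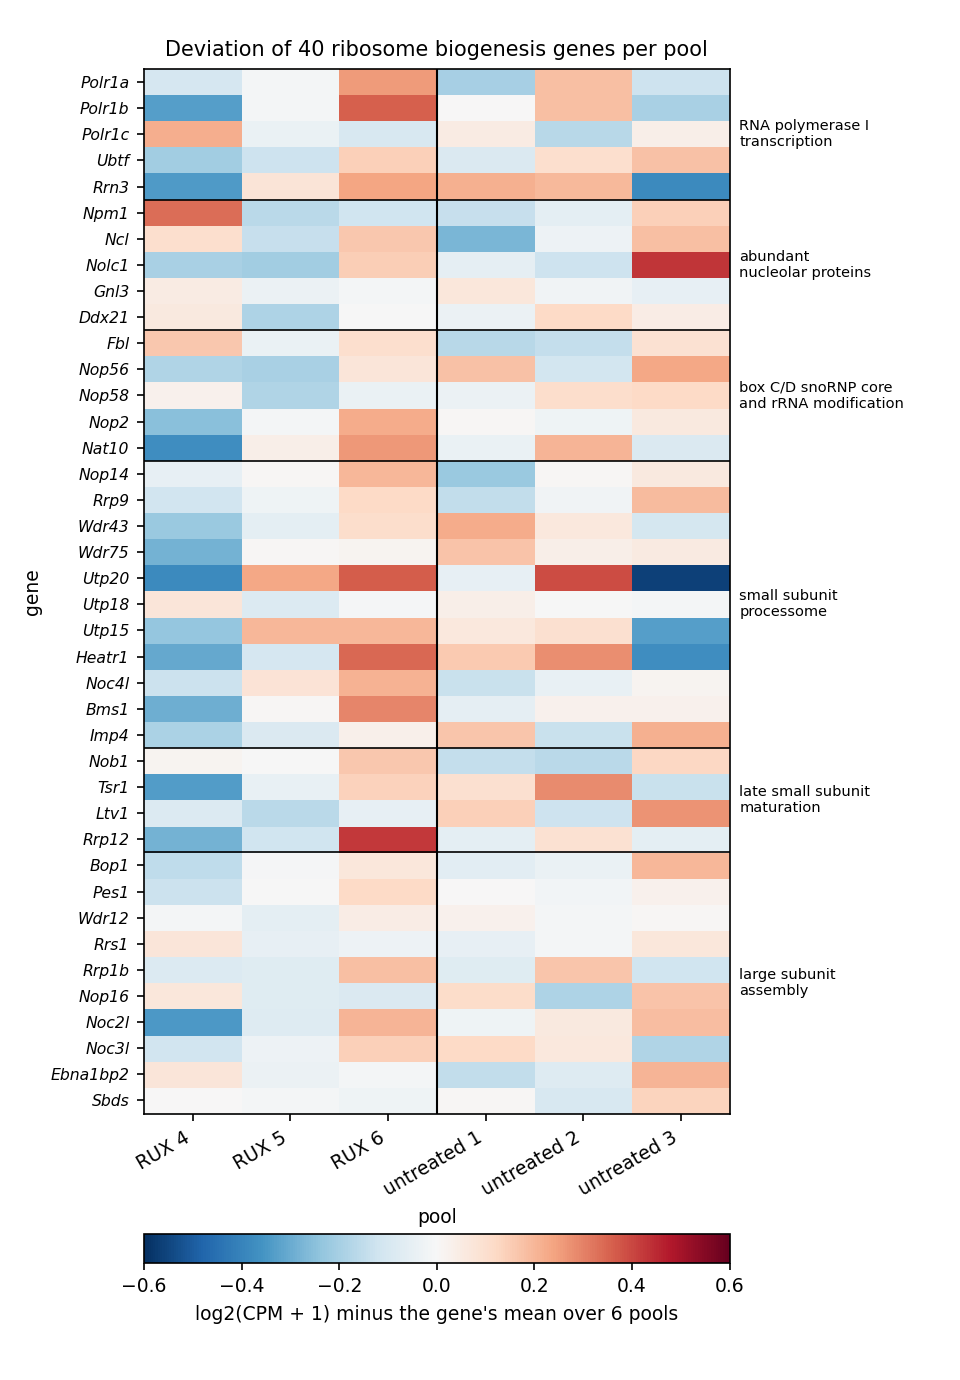
Deviation of each gene's log2(CPM + 1) from its mean over the 6 pools, with genes as rows ordered by role and pools as columns, the RUX pools left of the line. RUX pool 4 is mostly blue (mean deviation -0.11), RUX pool 6 mostly red (0.12), and the untreated pools lie between them on average.

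In some pools the deviations also followed transcript length. Among the 40 genes, Spearman's rho between summed exon length and deviation was -0.495, 0.043 and 0.669 in RUX pools 4, 5 and 6, against -0.083, 0.738 and -0.519 in untreated pools 1, 2 and 3. Over all 13411 tested genes the values were -0.306, 0.151 and 0.31 in RUX pools, against 0.12, 0.381 and -0.468 in untreated pools, so the pattern was not limited to the group. These correlations run across genes, which share the same 6 libraries, and are a description. The 20 longer genes (2911 bases or more) deviated by -0.185 in RUX pool 4 and by 0.195 in RUX pool 6. The 20 shorter genes (2785 bases or less) deviated by -0.04 in RUX pool 4 and by 0.05 in RUX pool 6. In untreated pool 3 the longer genes deviated by -0.08 and the shorter ones by 0.11, and in untreated pool 2 the longer genes by 0.11 and the shorter ones by -0.06. Each group thus held 1 pool low and 1 pool high for long transcripts, and the rho between length and the log2 fold change itself was 0.1 among the members and 0.048 over all tested genes. When a length trend was removed from each pool, a setting chosen after seeing the data, the mean deviations were -0.085, -0.0493 and 0.117 in RUX pools 4 to 6, against -0.0279, 0.0132 and 0.0421 in untreated pools 1 to 3. RUX pools 4 and 6 thus still marked the ends.

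**Figure D4:**
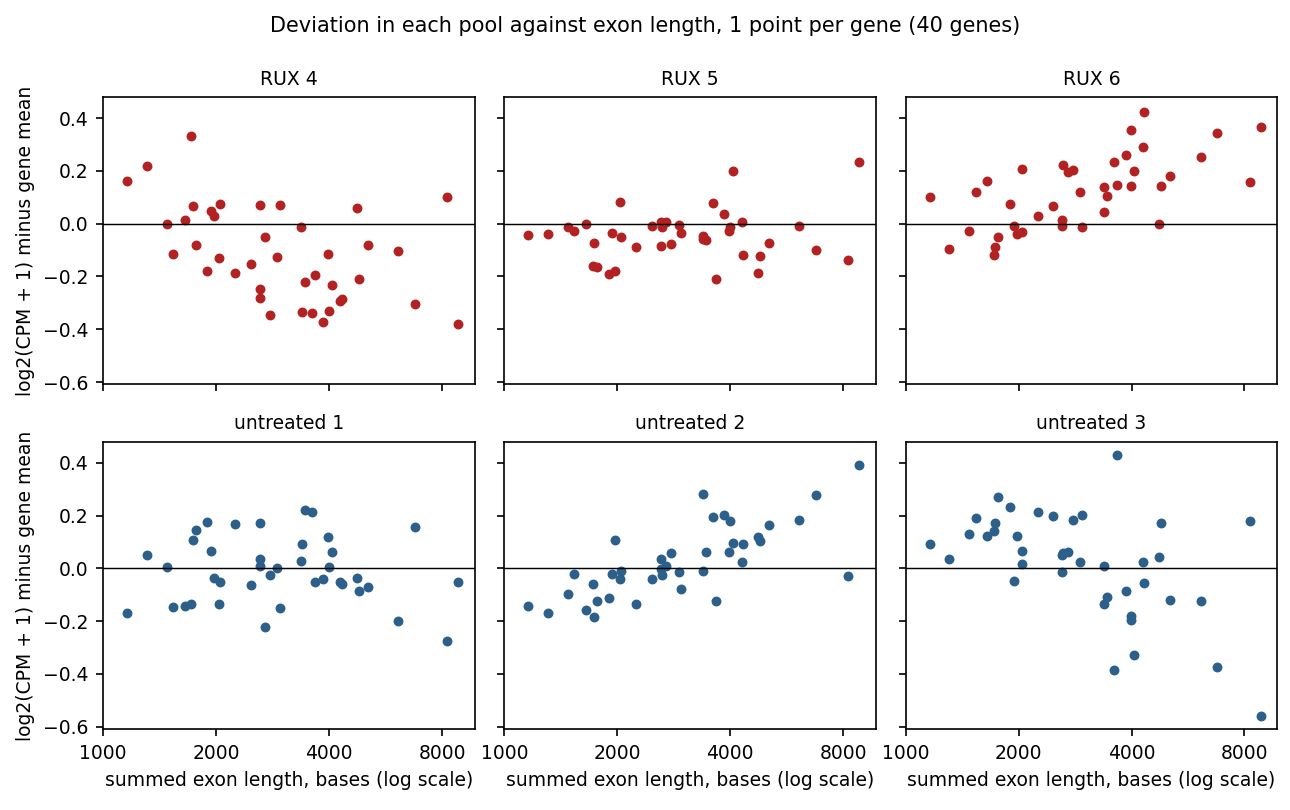
Deviation of each gene's log2(CPM + 1) from its 6-pool mean against summed exon length in bases on a log scale, 1 panel per pool with the RUX pools in the upper row and 1 point per gene. Points slope down in RUX pool 4 and untreated pool 3 (rho -0.495 and -0.519) and up in RUX pool 6 and untreated pool 2 (rho 0.669 and 0.738).

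Cell cycle and erythroid genes varied along with the members among the RUX pools. The 30 S-phase genes summed to 6811, 8100 and 9236 CPM in RUX pools 4, 5 and 6, against 8359, 8037 and 8152 CPM in untreated pools 1, 2 and 3. Of these 30, 12 had positive fold changes. Erythroid markers, of which 8 of 12 tested had positive fold changes, summed to 5589, 6866 and 9294 CPM in RUX pools, against 6688, 7625 and 6321 CPM in untreated pools. Hbb-bt and Hba-a2 of that list were at 0 in every pool, while Klf1 stood at 178 CPM or more. The 13 neutrophil genes, of which 4 had positive fold changes, summed to 11507, 11070 and 8787 CPM in RUX pools, against 7645, 7061 and 15609 CPM in untreated pools. That sum was mostly Mpo and Elane. The list's median log2 fold change was -0.81, and its mean deviations were 0.63, 0.12 and -0.95 in RUX pools, against -1.64, 0.61 and 1.24 in untreated pools. S100a8, a gene of later neutrophil stages, measured 466, 259 and 115 CPM in RUX pools, against 55.8, 615 and 721 CPM in untreated pools. Megakaryocyte markers, of which 7 of 7 tested had positive fold changes, summed to 153, 157 and 141 CPM in RUX pools, against 125, 133 and 133 CPM in untreated pools. Stem cell markers, of which 8 of 10 tested had positive fold changes, summed to 241, 280.0 and 268 CPM in RUX pools, against 253, 247 and 153 CPM in untreated pools. No gene of the neutrophil, megakaryocyte or stem cell list was at 0 in every pool. The part of these genes in the levels and the pool pattern of the 40 was not tested. In bulk RNA, fewer cells of a type and less RNA per cell cannot be told apart.

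Read pairs were also counted on Rn45s, the gene record of the 45S rRNA precursor that the pathway processes (chromosome 17, 39842997 to 39848829). It measured 11048, 3501 and 2426 CPM in RUX pools 4, 5 and 6, against 1884, 4421 and 2811 CPM in untreated pools 1, 2 and 3. RUX pool 4 stood far above the others, and the remaining RUX values lay inside the untreated range. The log2 fold change of 0.90 ± 0.44 (SE) had an adjusted p of 0.9999 (edgeR). Without RUX pool 4 it was -0.03, and without RUX pool 4 and untreated pool 3 it was -0.09. The Rn45s record is 5833 bases long, and the libraries were made with an mRNA kit. Whether these pairs came from precursor or from mature rRNA was not tested. The record of Lars2, a mitochondrial leucyl-tRNA synthetase gene, was likewise highest in RUX pool 4. It held 55594, 33382 and 14469 CPM in RUX pools, against 11708, 45845 and 18589 CPM in untreated pools. Its mean of 13565 TPM lay above the 1835 TPM of Npm1. Whether the pairs on this record came from Lars2 mRNA was not tested. The 40 members together took 0.917, 0.907 and 1.04% of the counts in RUX pools 4, 5 and 6, against 0.921, 0.951 and 0.999% in untreated pools 1, 2 and 3.

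Myc, the transcription factor best known as a driver of ribosome biogenesis (chromosome 15, 61985341 to 61990361), had higher CPM in all 3 RUX pools. It measured 424, 451 and 437 CPM in RUX pools 4, 5 and 6, against 404, 392 and 353 CPM in untreated pools 1, 2 and 3. The groups did not overlap in CPM in this direction, as for 2.99% of all tested genes. In TPM they overlapped, with 279.8, 348 and 348 TPM in RUX pools, against 314, 307 and 239.5 TPM in untreated pools. The log2 fold change of 0.19 ± 0.14 (SE) did not pass (edgeR adjusted p = 0.9999). The 11 MYC network genes had a median log2 fold change of -0.03, with 4 positive.

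**Figure D5:**
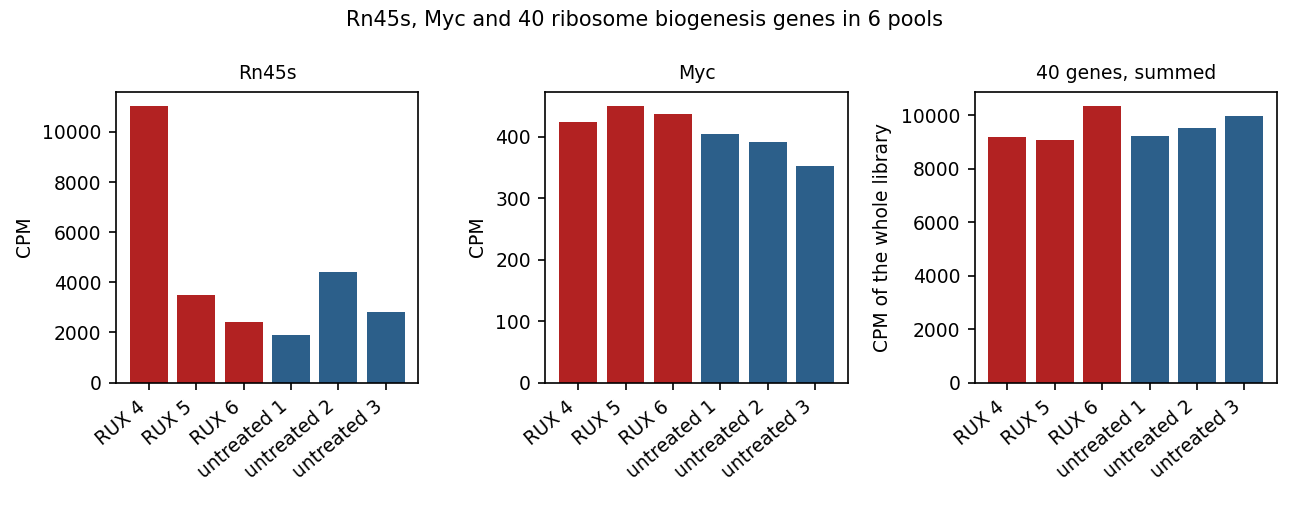
CPM of Rn45s, of Myc and of the 40 genes summed (the last relative to the whole library), 1 bar per pool with the RUX pools in red at the left. Rn45s stands at 11048 CPM in RUX pool 4 and at 4421 CPM or less elsewhere, the Myc bars of the RUX pools exceed those of the untreated pools on this scale, and the summed members range from 9068 to 10360 CPM.

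Other genes of the pathway also did not pass the test, but on average their pools were ordered differently. Of 143 further ribosome biogenesis genes in the table, chosen by function and all tested, 0 passed the test, 59 had positive and 84 negative log2 fold changes, and the median was -0.02. At an unadjusted p under 0.05 the count was 0. Of the 143, 0 lay above the untreated pools in all 3 RUX pools, against 2.99% of all tested genes, and 7 (4.9%) lay below, against 3.25%. In TPM 1 lay above and 4 (2.8%) below, against 2.34% and 2.7% of all tested genes, and none of the 7 was among them. The mean deviations of the 143 were -0.0055, -0.0422 and 0.014 in RUX pools 4, 5 and 6, against -0.0104, -0.0167 and 0.0608 in untreated pools 1, 2 and 3. On that average RUX pools 4 and 6 did not mark the ends as they did for the 40 members. They did for the 40 further small subunit genes (-0.0538 and 0.0496). For the 53 further large subunit genes RUX pool 4 was lowest (-0.0488), and RUX pool 6 (0.0563) lay next to untreated pool 3 (0.0568). The signs were reversed for the 18 further snoRNP and modification genes (0.0578 and -0.046). So they were for the 17 trimming and exosome genes (0.0218 and -0.0176). The 16 further RNA polymerase I genes and factors deviated on average by 0.14 in RUX pool 4 and -0.11 in RUX pool 6. The mean of the 5 members of that role had the opposite signs, at -0.15 and 0.18. Polr1c, the shortest of these 5 at 1305 bases, had the signs of the 16, at 0.22 and -0.0964. The part of exon length in this contrast was not tested. On the lower side the smallest p belonged to Riok2, Znhit3 and Nmd3. Riok2, a kinase of late 40S maturation, measured 55.8, 59.6 and 56.3 CPM in RUX pools 4, 5 and 6, against 86.3, 62.7 and 64.2 CPM in untreated pools 1, 2 and 3. Its groups did not overlap in CPM but overlapped in TPM, and untreated pool 1 was the high one, with a log2 fold change of -0.31 ± 0.16 (SE). Nmd3, the adaptor for export of the 60S particle, measured 108, 102 and 115 CPM in RUX pools, against 147, 119 and 124 CPM in untreated pools, likewise separated in CPM and not in TPM, with a log2 fold change of -0.26 ± 0.14 (SE). Znhit3, a factor of box C/D particle assembly, had a log2 fold change of -0.30, with overlap in CPM and none in TPM. On the higher side Urb1, a protein of early 60S assembly, measured 33.1, 33.1 and 38.4 CPM in RUX pools, against 27.9, 34.8 and 22.8 CPM in untreated pools, a log2 fold change of 0.29 ± 0.17 (SE). Exosc6, a core subunit of the RNA exosome, and Fam207a had log2 fold changes of 0.22 and 0.21.

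Several members also carry small nucleolar RNA genes in their bodies. By the deposited annotation, 10 such records lay inside 6 of the 40 genes: Ncl (Snora75 and Snord82), Gnl3 (Snord19 and Snord69), Nop56 (Snord57 and Snord110), Nop58 (Snord11 and Snord70), Wdr43 (Snord92) and Tsr1 (Snord91a). The host genes averaged 2251 CPM in RUX and 2136 CPM in untreated pools for Ncl, the highest of the 6, and 53.2 CPM in RUX and 59.5 CPM in untreated pools for Tsr1, the lowest. Their log2 fold changes were 0.08, 0.0010, -0.20, -0.13, -0.12 and -0.16 in the order named.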

How the data were processed

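RNA of Lin-CD117+ bone marrow cells was made into libraries with the SMART-Seq mRNA LP kit, per the labels' protocols. Alignment used STAR and mm10, per the submitters' processing notes. The deposited values are whole-number counts: featureCounts 2.0.3 assigned read pairs to the exons of UCSC genes with no strand option, per the file headers; pairs on several genes or places were left out by that tool's defaults. Other deposited values used were exon lengths in bases.

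Columns were matched to pools by library name. In R 4.3.3, edgeR 4.0.16 kept 13411 genes (filterByExpr, at least 99.9% of the counts), scaled by TMM (factors 0.938 to 1.035) and tested treatment alone by the two-sided quasi-likelihood test, adjusted over all tested genes; the threshold was 0.05. CPM follow TMM unless stated; group overlap was also read in TPM, a choice made after seeing the data; TPM were not TMM-scaled. SEs were computed as the fold change over the root of F. Alternatives used limma 3.58.1 and DESeq2 1.42.0. The procedure was checked on simulated data with larger folds than those of the members and the same dispersion for all genes. Changes as small as those of the members were not simulated.

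The members, role groups and lists were chosen with earlier results of these data known. Values were given for members with the smallest p in each role group, no overlap, or extreme level or range, and for 12 chosen by function; those of Gnl3, Ddx21, Heatr1, Tsr1, Rrp12 and Lars2 were added after they were seen. The labels pair no pools and name no batch, the p-values measure the spread between pools, and Ly6g is not analysed here.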

Additional observations from a re-analysis of the deposited data

How the results depend on the processing

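No paired analysis was possible because the pool numbers 1 to 3 and 4 to 6 are not shared between the groups. Of 18 other settings (17 planned, 1 added after seeing the data), each called 0 of the 40 members and 0 of the 143 other pathway genes, and the smallest adjusted p of any member was 0.830. Among them, the main fit read at an adjusted p under 0.01 could call no further gene and change no sign. Robust fitting gave the same fold changes as the main fit. The members' median log2 fold change ran from -0.0825 (without RUX pool 6) to 0.0209 (without RUX pool 4 and untreated pool 3), and its leave-one-out values ran from -0.0825 to 0.0096. With 1 pool left out, 0 genes of the whole table were called in each case. With no filter on low counts 14 genes passed, and limma-voom with quality weights called 1; none of these was a member. Rn45s was among the 14, at a log2 fold change of 0.90 (edgeR adjusted p = 0.000598). Its SE in that fit was 0.1639, against 0.4411 in the main fit. Kit and Wdr12 had SEs of 0.1643 and 0.1639 there, against 0.2579 and 0.1321 in the main fit. The SEs of these genes were thus nearly alike without the filter, unlike in the main fit, which limits the weight of that p. The leave-one-out values of Rn45s ran from -0.0303 (without RUX pool 4) to 1.28 (without untreated pool 2), and without RUX pool 4 and untreated pool 3 it was -0.087. Limma-voom gave 0.67 and its weighted form 0.50. Rn45s has no value where it was itself left out with Lars2 and 83 ribosomal protein genes. Signs of single members carry little weight: 28 of 40 changed sign in at least 1 setting and 12 in none, among them Ltv1 (-0.30 to -0.11), Nop56 (-0.29 to -0.09), Wdr75 (-0.22 to -0.07) and Fbl (0.10 to 0.23). Per-pool means of the members were also read under other scalings, a pseudocount of 0.5 CPM or a median over members. They moved by less than the spread within groups (SD 0.0855, both groups pooled). That SD came mostly from the RUX pools (-0.11 to 0.12), as the untreated pools lay between -0.01 and 0.03. The shifts were not set against the untreated spread alone. The 7 other pathway genes without overlap became 4 with DESeq2 size factors and 5 with upper-quartile scaling, settings chosen after seeing the data. With 3 pools a group, differences smaller than the intervals given could not be detected. Those intervals are per gene and unadjusted. A call at an adjusted p under 0.05 would generally need a larger difference still.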
